A study of Mus musculus with 6 samples.

Results

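The reticulon and REEP genes code for the small membrane proteins that bend the endoplasmic reticulum (ER) into tubules, and here they were followed in a mouse lung tumour line with and without MAX. The 10 genes Rtn1 to Rtn4 and Reep1 to Reep6 were taken by symbol from the 24391 annotated genes, 4 of them reticulons and 6 of them REEPs. All 10 passed the filter on low counts, Rtn1 only with its MAX restored libraries. The family was chosen by 1 measured value, the rise of Rtn1 in these same libraries, which was among the largest, so the change of Rtn1 is given as a description with no test. The other 9 genes came in by name.

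RNA was sequenced from mRPMaxKO cells, a line derived from an RPMax-/- lung tumour (without Rb1, p53 and Max, a mouse model of small cell lung cancer) on a mixed 129/SvJ; C57BL/6 background. All cells belonged to a polyclonal population that carried a lentiviral vector induced by doxycycline and had been selected with puromycin, at fewer than 20 passages. The 6 libraries were 3 of the group labelled control and 3 of the group labelled MAX restored, and the protocol for both gives 4 days of doxycycline. What vector the controls carried and whether they received doxycycline is not in the labels. Nor is it said that libraries of one group are separate cultures; the p-values therefore rest on a spread between samples that may be technical.

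Reticulons and REEPs share hairpin-like membrane segments that sit as a wedge in the outer face of the ER membrane and give it high curvature, while the GTPases called atlastins fuse tubules into a network. RTN1 is known from neurons and neuroendocrine cells, RTN2 is abundant in muscle and nerve, RTN3 also serves as a receptor for autophagy of the ER, and RTN4 is the protein called Nogo that limits axon growth. REEP1 to REEP4 bind microtubules, REEP5 and REEP6 form the other branch of the family, and inherited changes in REEP1, RTN2, the neuronal atlastin or spastin cause spastic paraplegia, a disease of long axons.

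Max, the gene put back, had between 620 and 691 counts per control and between 13369 and 15979 counts per MAX restored library, so the targeted gene follows the labels. Library totals lay between 10046899 and 11925909 counts. Control 1 stood apart from the other controls, with a chi-square per degree of freedom of 8.91 and 10.2 against them. The 4 other within-group pairs lay between 1.24 and 1.51. A large part of the departure of control 1 comes from a single gene, the ribosomal RNA precursor Rn45s. It had 101661 counts in control 1 against 19493 and 10934 in controls 2 and 3. The chi-square without Rn45s was not computed. The defining neuroendocrine markers were abundant, all 8 of 8 being tested, and their summed level was 8639 to 8878 CPM (counts per megaread of the TMM-scaled library size) in the controls and 8729 to 9038 CPM with MAX restored. Across the transcriptome 8040 of 12664 tested genes passed the threshold (adjusted p under 0.05, edgeR's quasi-likelihood test, Benjamini-Hochberg adjusted over the whole table), or 63.5%, with 31.2% higher and 32.3% lower.

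The sequence before 2 of the 3 listed start sites of Rtn1 is shown because this gene changed far more than its relatives, and that of Rtn3 because it is the most abundant reticulon and did not pass the test. MAX dimers bind E-boxes, so 2 words were searched on both strands, the canonical E-box CACGTG and the variant CACGCG. The letters are the 250 bases before each start, 5′ to 3′ on the strand of the gene, from RefSeq on GRCm38.p6, a later build than the mm9 of the counts, and capitals mark a CACGCG word.

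Rtn1 upstream start, chr12:72409055-72409304, minus strand: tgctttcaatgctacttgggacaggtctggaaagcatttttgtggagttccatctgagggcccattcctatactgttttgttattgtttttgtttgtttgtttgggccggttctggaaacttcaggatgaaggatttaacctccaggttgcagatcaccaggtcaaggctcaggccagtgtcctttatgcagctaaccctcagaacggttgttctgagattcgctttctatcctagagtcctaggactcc

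Rtn1 first internal start, chr12:72236728-72236977, minus strand: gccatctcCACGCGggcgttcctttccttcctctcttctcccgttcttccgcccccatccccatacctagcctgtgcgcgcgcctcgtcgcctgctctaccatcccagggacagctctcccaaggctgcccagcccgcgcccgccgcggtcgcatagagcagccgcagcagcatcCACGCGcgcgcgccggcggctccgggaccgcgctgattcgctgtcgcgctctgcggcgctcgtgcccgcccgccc

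Rtn3 start, chr19:7483292-7483541, minus strand: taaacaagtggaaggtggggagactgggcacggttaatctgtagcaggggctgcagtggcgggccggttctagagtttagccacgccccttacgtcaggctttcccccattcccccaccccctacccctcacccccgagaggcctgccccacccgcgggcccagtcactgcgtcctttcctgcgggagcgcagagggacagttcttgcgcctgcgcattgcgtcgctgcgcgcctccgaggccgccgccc

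The third start, 173308 bases downstream of the upstream one, is not shown because its window lies within annotated Rtn1 exons; it has a GC content of 45.2% and neither word. The first internal start of Rtn1, 172327 bases downstream of the upstream one, has a GC content of 72.4% and 35 CG pairs in its window, against 46.0% and 3 for the upstream start. The window of Rtn3 has 67.2% and 20 CG pairs, and the median over all windows was 52.4% and 6. The variant word CACGCG occurred in the window of the first internal Rtn1 start only, among 9 windows of the 5 members found in the table (Rtn1, Rtn2, Rtn3, Rtn4 and Reep1), at 242 and 75 bases before the start. The canonical word CACGTG occurred in none of the 9. Over all 32851 windows, 6.02% held CACGTG and 7.62% held CACGCG. A match is a description of letters and not of binding, and the counts, summed over each gene, do not show which start was used. Reep2, Reep3, Reep4, Reep5 and Reep6 had no entry.

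Rtn1 went from a few reads to a clear level. Controls 1, 2 and 3 held 8, 9 and 5 reads of it, and MAX restored libraries 1, 2 and 3 held 337, 366 and 325, over the 11 distinct exons of the gene on chromosome 12 of mm9 (73312736 to 73510041, minus strand). On the CPM scale these were 0.788, 0.863 and 0.495 against 28.3, 32.6 and 31.8, so every MAX restored library lay far above every control. The summed counts, 22 against 1028, gave a ratio of 43.0 after scaling, with an exact binomial 95% interval of 28.2 to 68.9 that covers counting error only. Neither this interval nor the SE of the fit allows for the choice of Rtn1 by this same rise. The fitted log2 fold change was 5.40 (SE 0.17), the ninth highest of the 12664 genes tested, and lay between 5.20 and 5.56 when each library was left out in turn. Of the tested genes 1.40% had a lower mean CPM in the controls, and 42.6% did with MAX restored. Rtn1 passed the filter on low counts only with its MAX restored libraries. Genes this low in every control were tested only where MAX restored libraries were higher, so the filter in part sets the 1.40%.

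**Figure D1:**
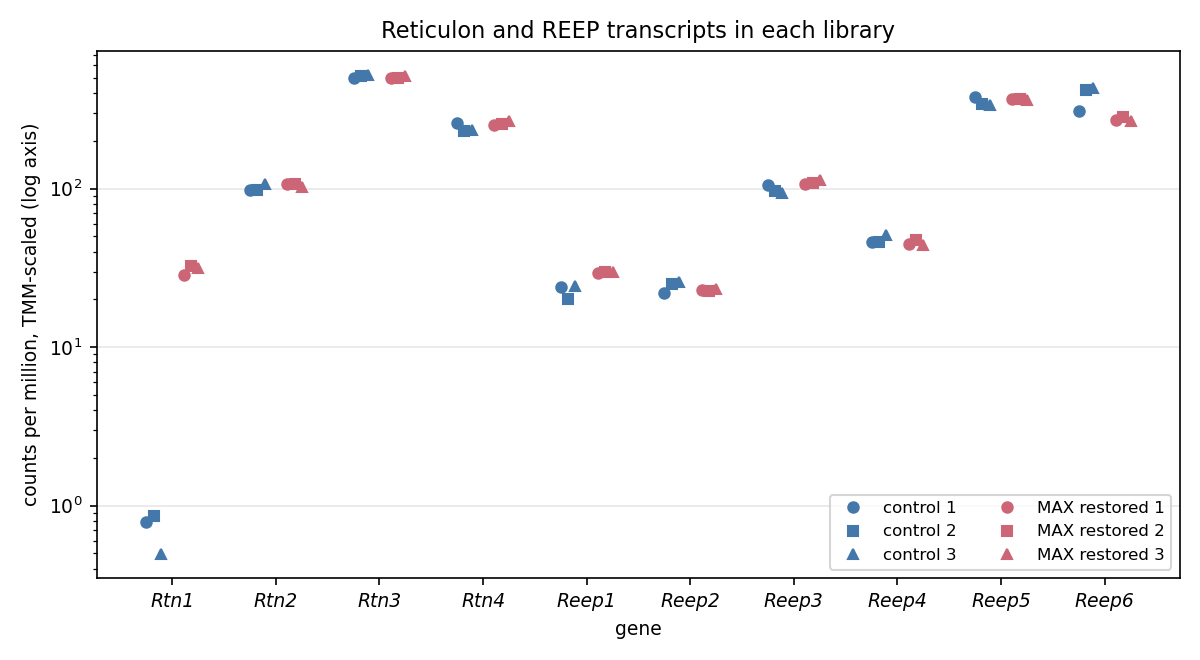
CPM (TMM-scaled, log axis) of the 10 genes in each of the 6 libraries, controls in blue and MAX restored libraries in red, with the marker shape giving the replicate number. Rtn1 moves from under 1 to between 28.3 and 32.6, while the symbols of the other genes stay close together, apart from Reep6 in controls 2 and 3.

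The genes whose pattern lay nearest to that of Rtn1, by Euclidean distance of centred log2 CPM over the 6 libraries, were Scn2b (0.55), AI593442 (0.55), Duoxa2 (0.70), St8sia1 (0.94) and Max itself (1.02). Scn2b codes for a sodium channel subunit, Duoxa2 for a maturation factor of a dual oxidase and St8sia1 for a ganglioside synthase. With 2 groups of 3 libraries the distance mostly reflects the size of the difference between groups.

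Markers of neurons, in which RTN1 is abundant, moved with Rtn1. Of 8 such markers 4 were tested and all 4 rose, where 31.2% of all tested genes did: Tubb3, a neuronal tubulin, 1.94-fold (adjusted p = 1.93e-11), Snap25, a vesicle fusion protein, 1.39-fold (3.47e-09), Map2 1.19-fold (2.01e-05) and Gap43 1.96-fold (0.0382, at about 1 CPM), all by edgeR's test. Gap43 passed the filter on low counts only with its MAX restored libraries, so its place among these 4 is not independent of its rise. The summed marker level was 433 to 452 CPM in the controls and 605 to 619 CPM with MAX restored. The neuronal markers Stmn2 and Nefl had no read in any library, Nefm had at most 0.0977 CPM and Rbfox3 at most 0.586 CPM. Of the glial markers Aqp4 (2.92-fold) and Mbp (1.23-fold) rose, Gfap had at most 0.446 CPM in any library and Mog had no read. The part of these genes in the result for Rtn1 was not tested. In bulk RNA, fewer cells with a transcript and less transcript per cell cannot be told apart.

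The other reticulons hardly moved, and none of the 3 passed the test. Rtn3, the ER-phagy receptor, had 501, 515 and 524 CPM in the controls, against 498, 497 and 511 CPM with MAX restored. The groups overlapped, and the log2 fold change was -0.03 (95% interval -0.10 to 0.04, adjusted p = 0.40 in edgeR's test). Rtn2, the reticulon of muscle and nerve, had 97.7, 97.9 and 107 CPM against 107, 107 and 102 CPM, again overlapping (log2 0.06, interval -0.04 to 0.17, adjusted p = 0.27 in edgeR's test). The intervals of both genes lie within a log2 change of -0.10 to 0.17.

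Rtn4, the gene of Nogo, had 260, 232 and 236 CPM in the controls and 252, 257 and 268 CPM with MAX restored. Control 1 lay within the MAX restored range and the other controls below it. The log2 fold change was 0.09 (SE 0.05, adjusted p = 0.084 in edgeR's test). Without control 1 it was 0.14 and passed (adjusted p = 7.7e-05 in edgeR's test). Rtn4 shares 1364 exon bases with Eml6 on the opposite strand, which rose 1.27-fold in the same fit, and Rtn3 shares 10 with 2700081O15Rik, which rose 2.29-fold. Counting ignored strand and no option was set to count reads that touch several genes, so reads on the shared bases can be missing from the counts of both genes.

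Among the REEP genes 2 rose, 1 fell and 3 did not pass. Of the 9 members other than Rtn1, 2 were thus higher and 1 lower, beside 31.2% and 32.3% of all tested genes. Without control 1, Rtn4 and Reep5 also passed, for 4 higher, and without control 2, control 3 or MAX restored library 3 only Reep1 was higher. Nothing is read from this share, since the family was chosen with the contrast in view. The groups of these 3 genes, Reep1, Reep3 and Reep6, did not overlap in CPM, beside 67.1% of all tested genes.

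Reep6, the REEP needed in rod photoreceptors, fell. Controls 1, 2 and 3 had 311, 417 and 430 CPM, against 271, 285 and 268 CPM with MAX restored. All controls lay above all MAX restored libraries, but control 1 lay closer to them than to its own group. The mean went from 386 ± 65.0 to 275 ± 8.70 CPM (SD, n = 3), a log2 fold change of -0.49 (SE 0.08, adjusted p = 1.31e-05 in edgeR's test). Without control 1 the fall was larger, at log2 -0.63. Control 1 also held 0.996% of its counts in Rn45s, the ribosomal RNA precursor, against 0.187% and 0.109% in controls 2 and 3 and 0.121% to 0.160% with MAX restored. Whether the RNA of control 1 has a part in its Reep6 level was not tested.

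Reep5, the nearest relative of Reep6, did not follow it. It had 379, 344 and 339 CPM in the controls and 368, 368 and 361 CPM with MAX restored, with control 1 highest of all (log2 0.05, interval -0.04 to 0.13, adjusted p = 0.34 in edgeR's test). Without control 1 the value was 0.10 and passed (adjusted p = 0.0039 in edgeR's test). Per kilobase of exon, Reep6 stood to Reep5 as 1.18, 1.74 and 1.82 to 1 in controls 1, 2 and 3, against 1.06, 1.11 and 1.07 to 1 with MAX restored. This ratio within a library does not depend on the scaling between libraries, and the groups did not overlap.

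**Figure D2:**
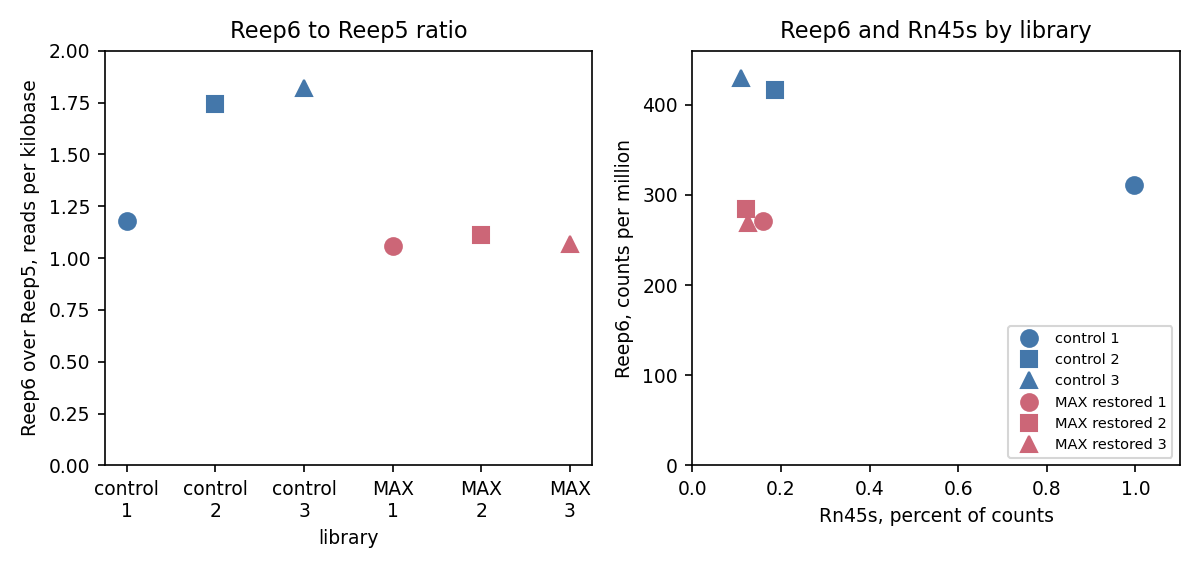
Left, the ratio of Reep6 to Reep5 in reads per kilobase of exon for each library; right, Reep6 in CPM against the percent of counts in Rn45s, with controls in blue and MAX restored libraries in red. Controls 2 and 3 lie at ratios of 1.74 and 1.82, and control 1, with 0.996% Rn45s, lies at 1.18, next to the MAX restored libraries.

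Reep1, the spastic paraplegia gene that links ER tubules to microtubules, rose by 29.8%. The controls had 24.0, 20.1 and 24.2 CPM, against 29.2, 29.6 and 29.9 CPM with MAX restored. The groups did not overlap and the MAX restored libraries were nearly equal (log2 0.38, SE 0.08, adjusted p = 0.00050 in edgeR's test). The gain did not pass a test against a fold of 1.2 (adjusted p = 0.083 in edgeR's glmTreat).

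Reep3, which with REEP4 clears ER from mitotic chromosomes, was 106, 96.9 and 94.2 CPM in the controls and 107, 108 and 113 CPM with MAX restored. Control 1 nearly touched the MAX restored range. The log2 fold change was 0.14 (SE 0.05, adjusted p = 0.022 in edgeR's test). The call was lost without control 2, without control 3 or without MAX restored library 3 (adjusted p = 0.069, 0.11 and 0.078 in edgeR's test).

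Reep4, its partner in mitosis, was 46.4, 46.2 and 50.8 CPM against 44.4, 47.2 and 44.4 CPM, with overlapping groups (log2 -0.08, interval -0.20 to 0.05, adjusted p = 0.28 in edgeR's test). Reep2, found in neurons and taste cells, was 21.9, 24.9 and 25.9 CPM against 22.9, 22.7 and 23.3 CPM, also overlapping (log2 -0.08, interval -0.25 to 0.10, adjusted p = 0.42 in edgeR's test). Per kilobase the ratio of Reep1 to Reep2 went from 0.557, 0.409 and 0.474 in the controls to 0.647, 0.663 and 0.652 with MAX restored.

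**Figure D3:**
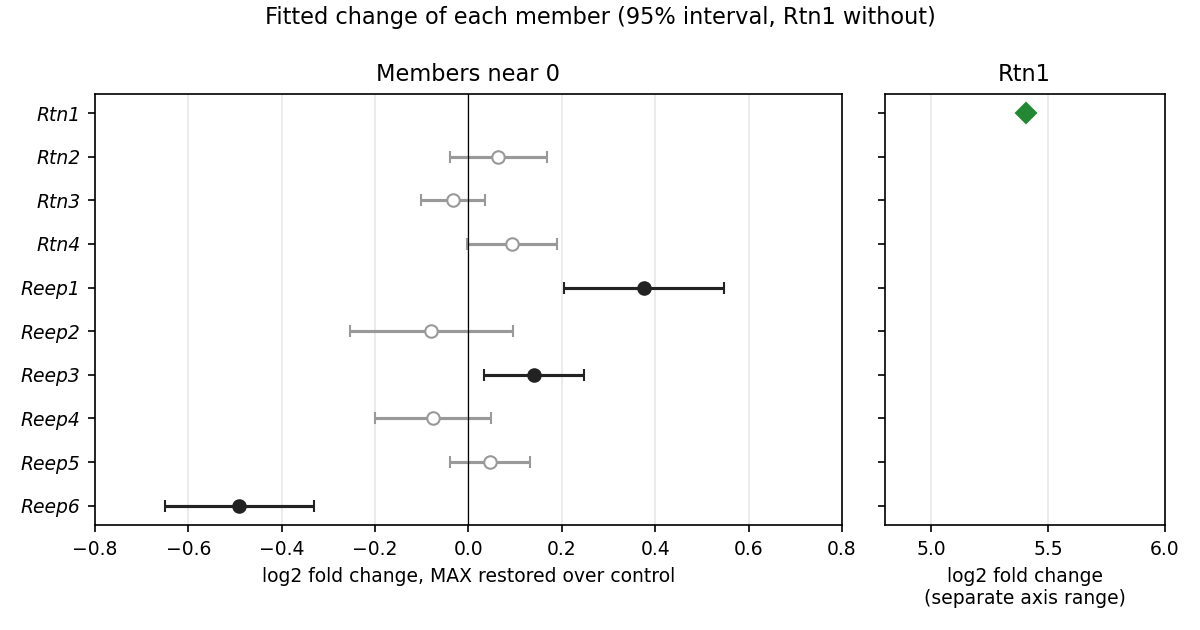
Fitted log2 fold change of each member, MAX restored over control, with 95% intervals and filled circles for an adjusted p under 0.05; the right panel holds Rtn1 on its own axis range, as a diamond with no interval and no test. Rtn1 lies at 5.40 and the other 9 genes between -0.49 (Reep6) and 0.38 (Reep1).

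Levels of different genes were compared per kilobase of exon (RPKM). In the controls the order from high to low was Reep6 (191 ± 32.3 RPKM, SD, n = 3), Reep5 (122 ± 7.49), Rtn3 (102 ± 2.33), Rtn2 (48.0 ± 2.55), Rtn4 (36.3 ± 2.30), Reep4 (28.6 ± 1.56), Reep3 (17.9 ± 1.13), Reep2 (12.6 ± 1.08), Reep1 (6.00 ± 0.603) and Rtn1 (0.183 ± 0.0496). No neighbours in this order overlapped between libraries. Reads on the 1364 exon bases that Rtn4 shares with Eml6 can be missing, while its exon length includes these bases. The RPKM of Rtn4 may thus be too low in both groups, and its place below Rtn2 is not settled. With MAX restored the first 8 places were the same, and Rtn1 (7.89 ± 0.584 RPKM) and Reep1 (7.78 ± 0.0985 RPKM) overlapped at the lower end. Rtn1 thus reached a level per length like that of Reep1 and below all other members.

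The make-up of the family in RPKM shifted mainly through Reep6. Its share of the summed RPKM of all 10 was 33.7% ± 4.23 in the controls and 25.9% ± 0.552 with MAX restored (SD, n = 3), while Rtn1 went from 0.0325% ± 0.00956 to 1.50% ± 0.101. The sum over the 4 reticulons was 185, 184 and 190 RPKM in the controls and 195, 196 and 198 RPKM with MAX restored. The possible loss of Rtn4 reads also applies to this sum, to the family sum and to the shares. The sum over the 6 REEP genes was 350, 389 and 397 RPKM against 327, 335 and 324 RPKM. The summed level of the family was 535, 573 and 588 RPKM in the controls and 522, 532 and 522 RPKM with MAX restored, with control 1 close above the highest of the latter.

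**Figure D4:**
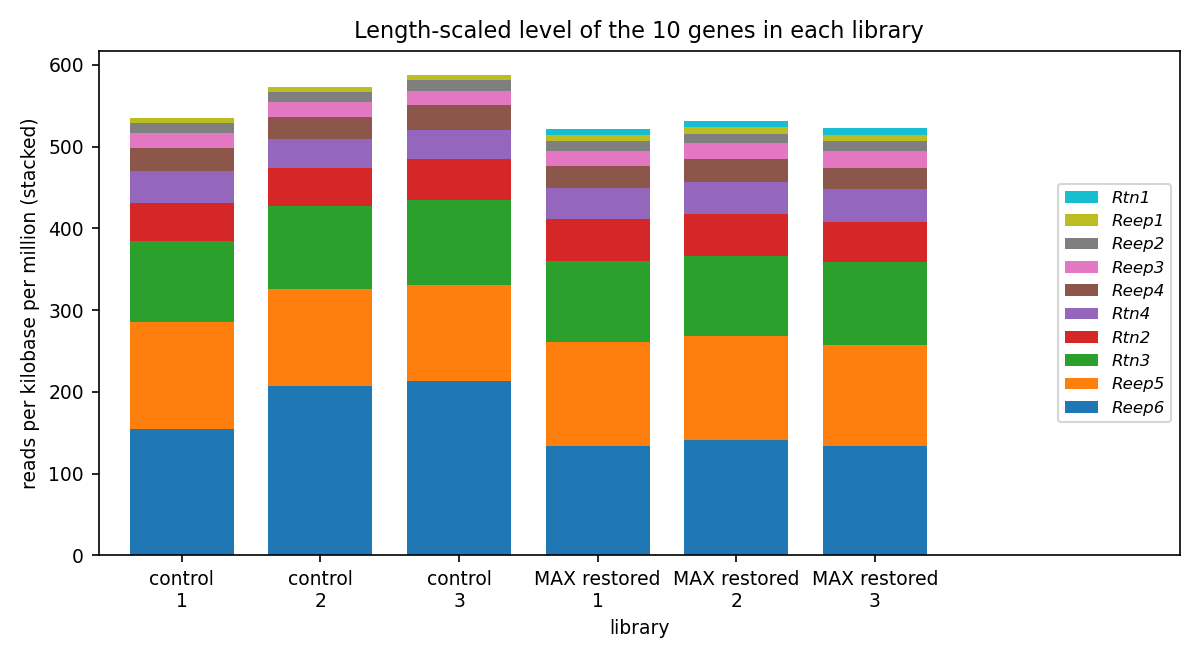
Stacked RPKM of the 10 genes in each library, from the most abundant in the controls (Reep6, bottom) to Rtn1 (top). The lowest block shrinks from 154, 207 and 213 in controls 1, 2 and 3 to between 133 and 141 with MAX restored, and a thin Rtn1 block appears.

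The other genes of ER membrane shape, a list of 20, were all tested, and 4 rose, 9 fell and 7 did not pass, with a median log2 fold change of -0.10 beside -0.0036 over all genes tested. The share that passed, 65%, was near the 63.5% of all tested genes. Lnp, the lunapark protein that steadies the junctions between tubules, fell most, from 59.5 ± 3.64 to 38.9 ± 1.62 CPM (SD, n = 3; 1.53-fold, adjusted p = 3.29e-08 in edgeR's test). Its controls were 63.7, 57.1 and 57.8 CPM and its MAX restored libraries 37.9, 38.0 and 40.7 CPM, with no overlap. Tmem33, a membrane protein that binds reticulons, fell 1.29-fold, as did Ckap4, the spacer protein of ER sheets. Rrbp1, the ribosome receptor of ER sheets, rose 1.19-fold, and the GTPase gene Rab10 fell 1.18-fold.

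The atlastins went down or did not pass. Atl2 fell 1.14-fold and Atl3 1.09-fold, and Atl1, the neuronal atlastin, was at 3.95 ± 0.560 and 4.26 ± 0.331 CPM (adjusted p = 0.60 in edgeR's test). Spast, the gene of the microtubule-severing protein spastin, fell 1.25-fold from 133, 110 and 109 CPM to 92.3, 88.7 and 101 CPM. The curvature protein genes Arl6ip1 (log2 -0.10) and Arl6ip5 (0.0009) did not pass. Fam134a and Fam134c fell 1.09-fold and 1.16-fold, and the others to rise were Rab18, Rab3gap1 and Fam134b. Against a fold of 1.2, 3 of the 20 were lower and 0 higher (edgeR's glmTreat). The same test called 1896 of all 12664 tested genes lower and 2111 higher.

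**Figure D5:**
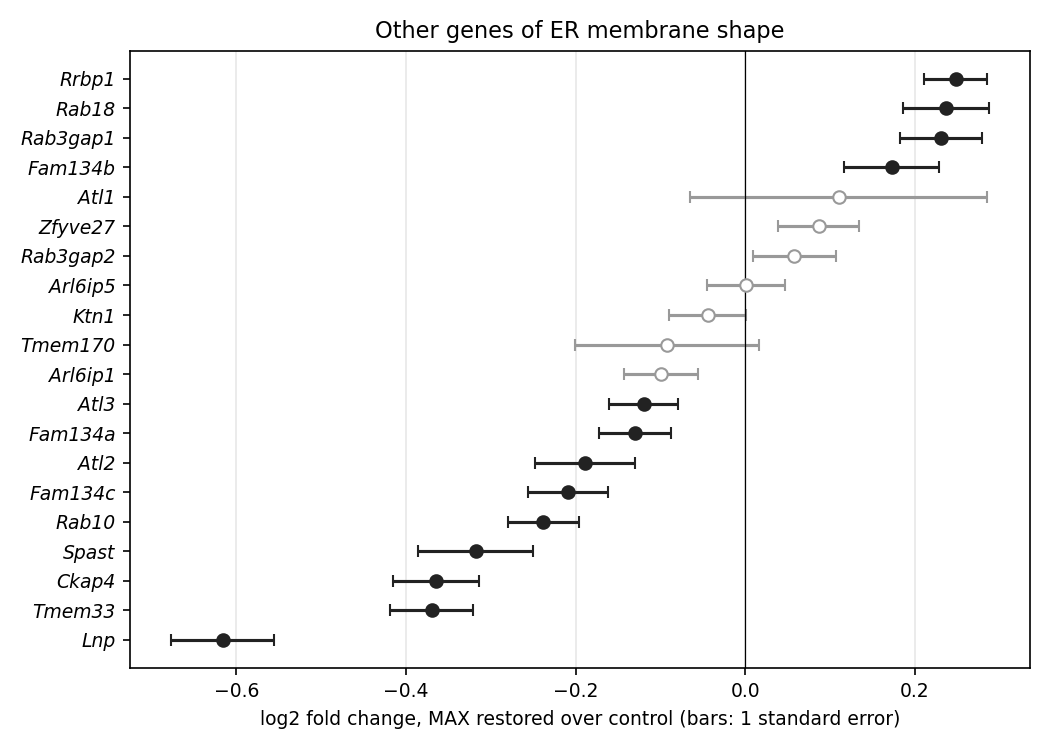
Fitted log2 fold change, MAX restored over control, of the 20 other genes of ER membrane shape, with bars of 1 standard error and filled symbols for an adjusted p under 0.05. Lnp lies lowest at -0.62 and Rrbp1 highest at 0.25.

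Of 10 receptors and partners of the reticulons, 6 were tested, and 4 rose, 1 fell and 1, Bace2, did not pass, where 31.2% of all tested genes were higher and 32.3% lower. Rtn4rl1, a relative of the Nogo receptor, had 97.1, 109 and 110 CPM in the controls and 143, 144 and 143 CPM with MAX restored (1.36-fold, adjusted p = 3.49e-07 in edgeR's test). The Nogo receptor gene Rtn4r itself was rare, at 0.683 ± 0.156 and 1.68 ± 0.246 CPM (SD, n = 3; 2.43-fold, adjusted p = 0.0022 in edgeR's test). Rtn4r passed the filter on low counts only with its MAX restored libraries, so its place among the 4 that rose is not independent of its rise. Bace1, the secretase that RTN3 and RTN4 bind, rose 1.18-fold, and S1pr2, another receptor for Nogo, 1.31-fold. Rtn4ip1, a mitochondrial partner of RTN4, fell 1.37-fold. The co-receptor genes Lingo1 and Ngfr had at most 0.084 and 0.396 CPM in any library, Rtn4rl2 at most 0.0959 CPM, and Tnfrsf19 had no read.

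Of 6 receptors for autophagy of the ER other than RTN3, Calcoco1 (1.26-fold) and Fam134b (1.13-fold) rose, Tex264 (1.25-fold) and Atl3 (1.09-fold) fell, and Sec62 and Ccpg1 did not pass. Fam134b and Atl3 also belong to the list of ER shape. Of 11 tethers between the ER and other membranes 2 rose, Esyt3 (1.53-fold, adjusted p = 5.98e-10 in edgeR's test) and the calcium sensor gene Stim1 (1.19-fold). Another 3 fell, Mospd2 (1.40-fold), Pdzd8 (1.30-fold) and Vapa (1.12-fold). The shares that passed were 66.7% of the ER-phagy receptors and 45.5% of the tethers, near or below the 63.5% of all tested genes. The RTP genes, like the REEP genes described through the transport of odorant receptors, were rare: Rtp2 went from 3.97 ± 1.08 to 1.19 ± 0.438 CPM and Rtp1 from 2.61 ± 0.740 to 0.997 ± 0.278 CPM (SD, n = 3; adjusted p = 2.05e-05 and 0.00046 in edgeR's test). Rtp4 did not pass and Rtp3 had no read. Of the 3 RTP genes tested 66.7% passed, again near the share of all tested genes. Rtp1 and Rtp2 passed the filter on low counts only with their control libraries, where they were higher.

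Markers of photoreceptors and skeletal muscle, where Reep6 and Rtn2 are best known, were low. The 4 photoreceptor markers summed to 0.591 to 1.19 CPM in the controls and 1.76 to 2.05 CPM with MAX restored. The 4 skeletal muscle markers summed to 2.49 to 3.25 CPM in the controls and 3.13 to 3.61 CPM with MAX restored. The immune markers summed to 1.98 to 3.35 CPM in the controls and 2.86 to 3.71 CPM with MAX restored, and the fibroblast markers to 0.689 to 1.49 CPM and 1.34 to 2.74 CPM. Pdgfrb, the only fibroblast marker tested, rose from 0.525 ± 0.404 to 1.86 ± 0.639 CPM (SD, n = 3; 3.46-fold, adjusted p = 0.0012 in edgeR's test), and Lum had no read. Pdgfrb passed the filter on low counts only with its MAX restored libraries, so that it was tested is not independent of its rise. The endothelial markers summed to 528 to 582 CPM in the controls and 419 to 454 CPM with MAX restored, nearly all of it Vwf, which alone passed the filter, was abundant and fell from 559 ± 28.2 to 432 ± 17.8 CPM (1.29-fold); Cdh5 had no read.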

How the data were processed

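Each library used 500 ng of total RNA per the labels' protocols. Per the file headers the authors deposited raw counts per gene symbol from featureCounts, with strand ignored and UCSC mm9 exons as features; no option counts reads that touch several genes. The tools STAR 2.5.2a, Subread 1.6.0 and bcl2fastq 1.8.4 come from the submitters' processing notes. The exon length per gene is also deposited.

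Genes were kept by filterByExpr (minimum count 10), leaving 12664 of 24391, scaled by TMM and tested with edgeR 4.0.16's quasi-likelihood test in R 4.3.3, 3 control against 3 MAX restored libraries, two-sided, at an adjusted p of 0.05. The SE of a fold change was the size of the coefficient divided by the root of its F value. RPKM is CPM per kilobase of deposited exon length. The fit was tested on simulated data. Alternatives used DESeq2 1.42.0, limma 3.58.1 and other scalings, filters, depths and libraries. The members and lists were chosen with earlier results of these data known. Of each list the 5 genes with the smallest p past the threshold, at most, and any count of 5 or fewer were named by rule; other names were chosen after their values were seen. One listed marker is not reported here.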

Additional observations from a re-analysis of the deposited data

How the results depend on the processing

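The direction of all 10 members was the same under each of the 15 alternatives run. The test against a fold of 1.2 could not alter it, since it keeps the fold changes of the main fit. The direction of Rtn1 was known when the family was chosen. Leaving out 1 library at a time gave 1 to 4 members other than Rtn1 higher and 1 lower, and 3618 to 4033 genes higher and 3640 to 4219 lower overall. It gave log2 fold changes of 0.0604 to 0.14 for Rtn4, 0.10 to 0.19 for Reep3 and 0.0143 to 0.10 for Reep5, so whether these 3 genes pass depends on single libraries. With at least 50 counts in 3 libraries Rtn4 passed (log2 0.11). Against a fold of 1.2, 2111 genes were higher and 1896 lower, and 0 members other than Rtn1 were higher, since Reep1 (0.38) and Reep3 (0.14) no longer passed. The ER shape list then had 0 higher and 3 lower. Same-numbered libraries did not deviate together (correlations of 0.0035, 0.035 and -0.024, and not every library was nearest its own number). With the replicate number as a block, 3941 genes were higher and 4093 lower, 2 members other than Rtn1 were higher and 1 lower, and Reep6 was at -0.48. The alternative gene length was not run, since the reference table gives the genomic span. Plain counts in place of counts per kilobase put Rtn3 first, at 28.7% of the family in the controls.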

Other observations

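The genes next to Rtn1 on the chromosome showed no change near its size. Among the 10 nearest tested genes in mm9 order, 5 on each side, 2 were higher and 5 lower. Their log2 fold changes ran from -0.67 to 0.35, and the median was -0.12. Its direct neighbours were Jkamp (0.02, not past the threshold) and Lrrc9 (0.30). Around Reep6 the median was 0.05, with 4 of 10 higher and 2 lower, and around Reep1 it was -0.06, with 2 higher and 5 lower. The tested gene next to Rtn3 on one side is Atl3, an atlastin, and on the other 2700081O15Rik. Of the 10 around Rtn3 7 were lower and 1 higher, and of the 10 around Rtn4 6 were higher and 0 lower. Around Rtn2 and around Reep4 4 were higher and 4 lower, and around Reep3 3 and 3. Around Reep2 5 were higher and 4 lower, and around Reep5 4 and 3. Over all tested genes 31.2% were higher and 32.3% lower, and nothing is read from these neighbour counts.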
